A study of Mus musculus with 4 samples.

Results

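The genes described here are the regulators of the G1 phase of the cell cycle: the D-type cyclins Ccnd1, Ccnd2 and Ccnd3, the E-type cyclins Ccne1 and Ccne2, the G1 kinases Cdk4 and Cdk6, the CDK inhibitors Cdkn1b and Cdkn1c, and the transcription factor gene Myc. They were taken by symbol from the count table, in which 10 of 10 were found among 50600 genes, and 10 of 10 passed the filter on low counts that left 14861 genes. The set was chosen by role and by the measured KO and WT counts, in which Ccnd1 was known to be higher in the knockout, so the difference between the genotypes is given for these 10 genes as a description, without a p-value. The RNA came from primary epithelial cells of the colon, taken from mice of the C57BL/6 strain. The control group was labelled wild type for Mettl14 (WT, 2 libraries) and the other group was labelled knockout for Mettl14 (KO, 2 libraries). No treatment was named for either group. The labels spell out neither the mice's ages, nor the way in which Mettl14 was deleted and in which cells, nor whether a library pooled several mice. All 4 library titles carry the code C-2W, which the labels do not explain. Xist and Y-linked transcripts showed 1 male and 1 female library in each group, so no mouse gave both libraries of its group. The p-values below measure only the spread between these libraries.

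D-type cyclins are made in response to growth signals, bind Cdk4 or Cdk6 and start the phosphorylation of the retinoblastoma protein, which otherwise holds E2F transcription factors in check. E-type cyclins are themselves E2F targets and act with Cdk2 at the entry into S phase. Cdkn1b (p27) and Cdkn1c (p57) encode inhibitors of cyclin-CDK complexes, and Myc encodes a transcription factor that binds the E-box and drives growth and cell cycle entry. In the colon, dividing cells lie in the lower crypt, and differentiated colonocytes leave the cycle as they move towards the surface.

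Upstream sequences from RefSeq (GRCm38.p6) were matched for 5 of the 10 genes, namely Ccnd3, Ccne1, Cdk4, Cdk6 and Cdkn1b. The sequences of the kinases are shown because they differ in how many E-boxes they hold, and that of Ccne1 because it was searched for E2F sites. Each begins 250 bases before the RefSeq start and stops where an annotated exon of the gene begins. Capitals mark matches on either strand to the E-box (CACGTG), to the E2F site (any of TTGGCGC and TTCCCGC and TTCGCGC and TTGCCGC) or to the TCF/LEF site of Wnt signalling (CTTTGAA or CTTTGAT).
Cdk4, chr10:127063285-127063533, plus strand: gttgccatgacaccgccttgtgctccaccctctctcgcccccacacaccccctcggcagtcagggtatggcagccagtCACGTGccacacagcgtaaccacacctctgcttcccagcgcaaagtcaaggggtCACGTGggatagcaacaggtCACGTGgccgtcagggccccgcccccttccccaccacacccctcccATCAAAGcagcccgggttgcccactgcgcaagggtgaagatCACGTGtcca
Cdk6, chr5:3343643-3343731, plus strand: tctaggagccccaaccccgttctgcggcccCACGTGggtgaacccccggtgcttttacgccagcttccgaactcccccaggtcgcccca
Ccne1, chr7:38107535-38107740, minus strand: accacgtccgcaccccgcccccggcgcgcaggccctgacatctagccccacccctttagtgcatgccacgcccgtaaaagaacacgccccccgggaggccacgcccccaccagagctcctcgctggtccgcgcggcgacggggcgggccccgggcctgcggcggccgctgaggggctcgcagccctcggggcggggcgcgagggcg
The 249 bases of Cdk4 held 4 E-boxes and 1 TCF/LEF match. The 89 bases of Cdk6 held 1 E-box, and they lie before a RefSeq start that is inside the annotated gene, between exons. No match to any of these letters lay in the 206 bases of Ccne1, nor in the upstream sequences of Ccnd3 or Cdkn1b. Over 250 bases before each of 32851 RefSeq starts, 6.02% held an E-box, 7.89% an E2F match and 7.48% a TCF/LEF match. The motifs do not overlap one another in these sequences, and a match describes letters, not binding.

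Library totals ran from 22136440 to 24991060 counts, and 28.6% to 33.8% of them were mitochondrial transcripts. A further 9.52% to 11.2% fell on predicted genes treated as copies of mitochondrial genes. Levels are given as CPM, the counts of a gene relative to a common library size, after TMM scaling. Mettl14 stood at 11.7 and 8.67 CPM in the WT libraries and at 3.99 and 3.94 CPM in the KO libraries, just outside the threshold (edgeR adjusted p = 0.0503). Since the deleted part of the gene is not named, reads from exons outside it could remain in KO, which was not tested. Epithelial markers summed to 10150 and 12160 CPM in WT and 9091 and 8194 CPM in KO, and 12 of 12 passed the filter. KO replicate 2 held the most fibroblast and smooth muscle RNA, with 584 CPM over 9 markers against 56.3 to 81.4 CPM in the other libraries. Macrophage markers summed to 68.4 and 95.4 CPM in WT and 174.5 and 160.8 CPM in KO, with 3 of 9 called higher by edgeR, where 1.72% of all tested genes were. Markers of T cells (53.5 and 53.7 CPM in WT, 68.6 and 58.3 CPM in KO), B and plasma cells (32.6 and 76.4 CPM, 79.5 and 54.01 CPM) and endothelium (6.02 and 9.72 CPM, 15.2 and 14.3 CPM) were low beside the epithelial ones. Neutrophil markers (43.2 and 149.5 CPM, 141.5 and 99.4 CPM) and red blood cell markers (1976 and 2736 CPM, 1353 and 6681 CPM) varied within both groups. Ly6g alone made up most of each neutrophil sum, at 38.2 and 128.5 CPM in WT and at 90.1 and 86.98 CPM in KO. No marker of any of these lists was at 0 in all 4 libraries, and the lowest were the endothelial genes Kdr (3 to 7 counts) and Plvap (1 to 9 counts). The part of these cells in the results was not tested. In bulk RNA, more cells of a type and more RNA per cell cannot be told apart.

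The 3 D-type cyclins differed between the genotypes in opposite directions. Ccnd1 was 2.01-fold and Ccnd2 1.8-fold higher in KO, and Ccnd3 was 0.853 of its WT level. Ccnd1, on chromosome 7 (ENSMUSG00000070348, 144929931 to 144939925, minus strand), was at 28.3 and 30.4 CPM in WT and at 60.5 and 57.8 CPM in KO. The gap of 27.4 CPM between the genotypes was large beside the SD within them, which was 1.48 CPM for WT and 1.9 CPM for KO. The log2 fold change was 1.01 (SE 0.10). Positions are those of GRCm38 throughout. The difference was alike in both sexes, at 1.02 between the male libraries and 0.98 between the female ones.

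Ccnd2, on chromosome 6 (ENSMUSG00000000184, 127125162 to 127152193, minus strand), was at 61.1 and 71.2 CPM in WT and at 112.6 and 126 CPM in KO. Both KO libraries again stood above both WT libraries, by at least 41.4 CPM, and the log2 fold change was 0.85 (SE 0.13). It was larger between the male libraries (1.04) than between the female ones (0.66), with no test possible on 1 library each. KO replicate 2, with the most fibroblast RNA, was the highest library for Ccnd2. Without it the log2 fold changes were 0.79 for Ccnd2 and 1.06 for Ccnd1.

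Ccnd3, on chromosome 17 (ENSMUSG00000034165, 47505051 to 47599691, plus strand), went the other way, at 30.7 and 31.8 CPM in WT and at 27.1 and 26.2 CPM in KO. The groups did not overlap, but the gap was 3.65 CPM and the log2 fold change -0.23 (SE 0.10). It was -0.23 between the male libraries and -0.23 between the female ones. With library size scaling, which moved the median log2 fold change of all genes up by 0.165, the value for Ccnd3 was -0.06.

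**Figure D1:**
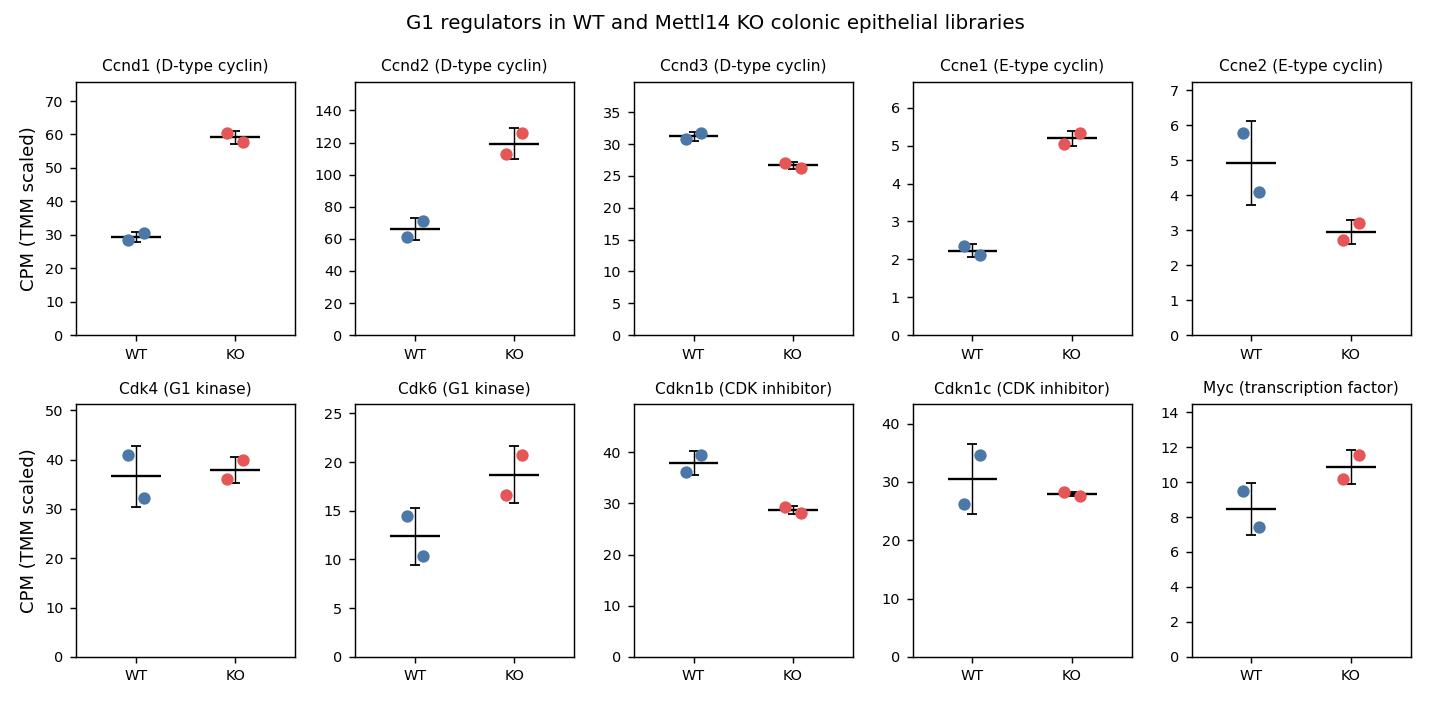
Level of each of the 10 genes in CPM after TMM scaling (vertical axes from 0), with 1 point per library, the mean as a horizontal line and the SD as a bar (n = 2). Both KO libraries lie above both WT libraries for Ccnd1, Ccnd2, Ccne1, Cdk6 and Myc, below them for Ccnd3, Ccne2 and Cdkn1b, and overlap them for Cdk4 and Cdkn1c.

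The E-type cyclins, which were the scarcest of the 5 cyclins by CPM, differed in opposite directions. Ccne1, on chromosome 7 (ENSMUSG00000002068, 38097984 to 38107534, minus strand), had 49 and 50 counts in WT and 114 and 137 counts in KO. Its level was 2.36 and 2.10 CPM in WT and 5.06 and 5.34 CPM in KO, a log2 fold change of 1.22 (SE 0.23). This was the largest log2 fold change of the 10 genes, and the KO libraries were apart from the WT ones by 2.69 CPM. Ccne2, on chromosome 4 (ENSMUSG00000028212, 11191351 to 11204779, plus strand), had 120 and 97 counts in WT and 61 and 82 counts in KO. It stood at 5.78 and 4.08 CPM in WT and at 2.71 and 3.20 CPM in KO, a log2 fold change of -0.74 (SE 0.28). The WT libraries differed from each other by more than the gap between the genotypes, which was 0.886 CPM. The value was -0.48 without WT replicate 1 and -0.94 without WT replicate 2.

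The kinases that pair with D-type cyclins differed less. Cdk4, on chromosome 10 (ENSMUSG00000006728, 127063534 to 127067920, plus strand), was at 41.0 and 32.2 CPM in WT and at 36.1 and 39.8 CPM in KO. The KO libraries lay between the WT libraries, with a log2 fold change of 0.05 (SE 0.15). Cdk6, on chromosome 5 (ENSMUSG00000040274, 3341485 to 3531008, plus strand), was at 14.5 and 10.3 CPM in WT and at 16.6 and 20.8 CPM in KO. The groups were apart by 2.18 CPM, less than either group's SD of 2.93 CPM, and the log2 fold change was 0.60 (SE 0.22). KO replicate 2 was the highest library, and the log2 fold change was 0.45 without it.

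The inhibitors were level or lower in KO. Cdkn1b, on chromosome 6 (ENSMUSG00000003031, 134920401 to 134925513, plus strand), was at 36.2 and 39.5 CPM in WT and at 29.2 and 28.2 CPM in KO. The genotypes did not overlap, and the log2 fold change was -0.40 (SE 0.10). Cdkn1c, a gene expressed from the maternal copy, lies on chromosome 7 (ENSMUSG00000037664, 143458339 to 143461050, minus strand) and was at 26.3 and 34.7 CPM in WT and at 28.2 and 27.7 CPM in KO. The KO libraries lay within the WT range, with a log2 fold change of -0.12 (SE 0.16).

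Myc, on chromosome 15 (ENSMUSG00000022346, 61985391 to 61990374, plus strand), was at 9.49 and 7.41 CPM in WT and at 10.2 and 11.6 CPM in KO. Both KO libraries were above both WT libraries by at least 0.709 CPM, less than the SD in either group (1.47 CPM in WT, 0.973 CPM in KO). The log2 fold change was 0.37 (SE 0.19), and it ran from 0.23 without WT replicate 2 to 0.55 without WT replicate 1.

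**Figure D2:**
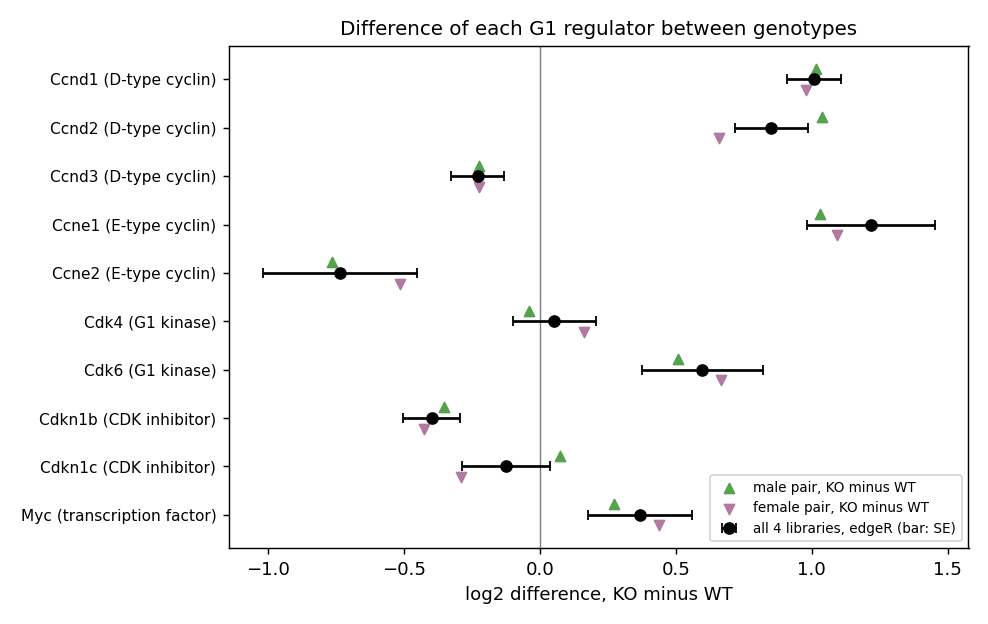
Log2 difference between KO and WT for each of the 10 genes, from the edgeR fit over the 4 libraries (black, bar: SE) and between the 2 male libraries and the 2 female libraries (triangles, with an offset of 0.5 in the log2 CPM). Values for Ccnd1, Ccnd2 and Ccne1 lie between 0.66 and 1.22, whereas those of Cdk4 and Cdkn1c lie on both sides of 0.

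Counted over the 10 genes, both KO libraries were above both WT libraries for 5 and below them for 3. Of all tested genes, 31.1% and 32.2% did so. At an edgeR adjusted p under 0.05, 2 of the 10 (Ccnd1 and Ccnd2) were called higher, where 1.72% of all tested genes were, and 0 were called lower, where 1.9% were (3.61% in either direction). With sex as a covariate edgeR again called 2 higher and 0 lower, where 4.68% and 4.8% of all genes were called (9.48% in either direction). At an unadjusted edgeR p under 0.05, 4 were higher and 1 lower, where 14.8% and 15.7% of all genes were. DESeq2 called 3 higher (Ccnd1, Ccnd2 and Ccne1), where 6.41% of all genes were, and 0 lower, where 6.56% were (13% in either direction). Since this contrast chose the set, nothing is read from these counts. The median log2 fold change was 0.21 over the 10 genes and -0.013 over all tested genes. Leaving out either KO library left edgeR with 0 calls in the whole table, with 2257 genes (replicate 1 left out) and 1987 genes (replicate 2 left out) at an unadjusted p under 0.05.

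To compare genes with each other, levels were divided by the length of a gene's exons in kb. In WT, Cdkn1c was the most abundant of the 10, at 14.9 ± 2.92 CPM per kb (SD, n = 2), followed by Cdk4 at 11.3 ± 1.91, Cdkn1b at 8.32 ± 0.519, Ccnd2 at 7.03 ± 0.757 and Ccnd1 at 6.24 ± 0.315 CPM per kb. Ccnd3 (3.56 ± 0.083), Myc (3.11 ± 0.542), Ccne2 (1.41 ± 0.344), Cdk6 (0.885 ± 0.209) and Ccne1 (0.839 ± 0.0683 CPM per kb) completed the order. Neighbours whose ranges of 1 SD met were Cdkn1c and Cdk4, Ccnd2 and Ccnd1, Ccnd3 and Myc, and the last 3. In KO, Ccnd2 (12.7 ± 1.01 CPM per kb) and Ccnd1 (12.6 ± 0.404) stood next to Cdkn1c (13.7 ± 0.198) and ahead of Cdk4 (11.7 ± 0.814). Only among these 4 did the ranges of 1 SD of neighbours meet. Below them in KO came Cdkn1b (6.31 ± 0.162), Myc (4.01 ± 0.357), Ccnd3 (3.04 ± 0.0693), Ccne1 (1.95 ± 0.0754), Cdk6 (1.34 ± 0.209) and Ccne2 (0.844 ± 0.0993 CPM per kb), each apart from the next. The place of Ccnd3 rests on the length used. The exons of its 21 annotated transcripts cover 8775 bases but the longest coding transcript has 2113, and with the latter it stood at 14.8 CPM per kb in WT and 12.6 in KO. With coding transcripts for every gene, Cdk4 (17.8 CPM per kb) came before Cdkn1c (16.0) in WT, and Ccnd2 (18.85) came first in KO.

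The make-up of the families therefore differed between the genotypes. Of the summed D-type cyclin level per kb, Ccnd3 held 21.9% and 20.5% in WT and 11.1% and 10.4% in KO. Ccnd1 held 37.6% and 36.6% in WT and 46.0% and 42.8% in KO, and Ccnd2 40.5% and 42.9% in WT and 42.9% and 46.7% in KO. With the longest coding transcript as length, Ccnd3 held 44.7% in WT and 26.7% in KO on average. The summed level was 16.8 ± 1.16 CPM per kb in WT and 28.3 ± 0.534 in KO (33.1 and 47.3 with coding transcript lengths). Among the E-type cyclins the larger share passed from Ccne2 to Ccne1, which held 34.9% and 40.4% in WT and 71.0% and 68.7% in KO. Their sum differed less, at 2.54 and 1.96 CPM per kb in WT and 2.67 and 2.92 in KO. Cdk4 supplied 92.4% and 93.1% of the kinase level in WT and 90.3% and 89.2% in KO. Cdkn1c held 61.8% and 66.2% of the inhibitor level in WT and 68.3% and 68.7% in KO. Summed D-type cyclins stood to summed Cdkn1b and Cdkn1c as 0.769 and 0.687 in WT and as 1.38 and 1.45 in KO. With coding transcript lengths the same ratio was 1.37 in WT and 2.25 in KO. These are ratios of the values described above, not separate evidence.

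**Figure D3:**
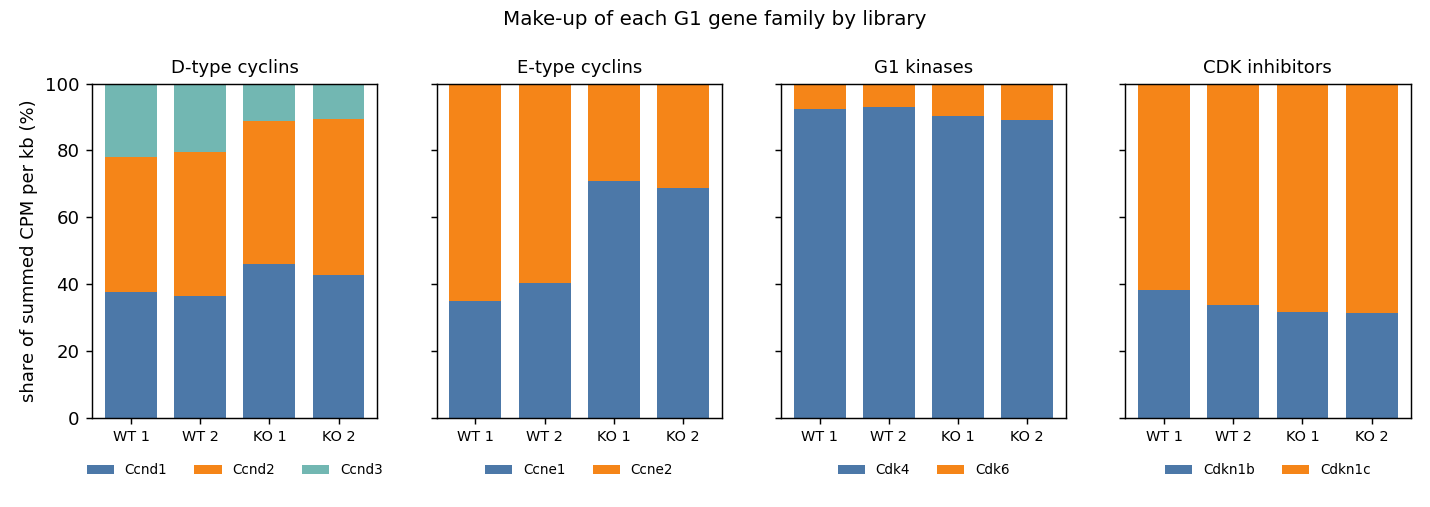
Share of each gene in the summed CPM per kb of its family (vertical axis, percent), with 1 bar per library for the D-type cyclins, E-type cyclins, G1 kinases and CDK inhibitors. Ccnd3 holds 20.5% to 21.9% of the D-type cyclins in WT and 10.4% to 11.1% in KO, and Ccne1 holds 68.7% to 71.0% of the E-type cyclins in KO.

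Reads could be shared with other genes at several of these loci. The longest exact run shared by the longest coding transcripts of related members was 20 bases, for Ccnd1 and Ccnd2 and for Cdk4 and Cdk6. Exons of the neighbour on the opposite strand overlap those of Ccnd1 (LTO1, 1100 bases), Cdk4 (Tspan31, 641 bases), Ccne2 (Ints8, 609 bases) and Ccnd3 (Bysl, 361 bases). Ints8 had 393 and 428 counts in WT and 301 and 301 in KO, lower as Ccne2 was. LTO1 had 366 and 404 counts in WT and 277 and 386 in KO, not higher as Ccnd1 was. Bysl had 125 and 211 counts in WT and 367 and 361 in KO, higher where Ccnd3 was lower. Tspan31 had 535 and 661 counts in WT and 531 and 555 in KO. Antisense RNAs that overlap Ccnd2, Cdk6 or Cdkn1c had at most 32 counts in any library. Strandedness of the counting is not given in the sources used here, so reads in the shared bases cannot be told apart.

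The other genes of the pathway were described with 10 lists of 118 genes, of which 117 were tested and none is one of the 10 above. Of these, 7 rose and 4 fell by edgeR (5.98% and 3.42%, against 1.72% and 1.9% of all tested genes). DESeq2 called 17 higher and 9 lower, where it called 6.41% and 6.56% of all tested genes. An unadjusted edgeR p under 0.05 was reached by 36 higher and 20 lower, where 14.8% and 15.7% of all tested genes did so. When either KO library was left out, edgeR called 0 of the 117. The pocket protein gene Rb1, which encodes the main substrate of cyclin D kinases, fell from 39.6 ± 1.56 to 22.6 ± 0.00774 CPM (log2 fold change -0.81, edgeR adjusted p = 0.0434). It was the 1 call among 13 genes of the Rb and E2F family. Its relatives Rbl1 and Rbl2 were at log2 fold changes of -0.43 and -0.38 (edgeR adjusted p = 0.105 and 0.0899). The activator E2f1 was at 3.57 and 3.16 CPM in WT and at 4.48 and 5.26 CPM in KO, and the list's median log2 fold change was -0.079.

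Of 13 genes for the ubiquitin turnover of G1 proteins, 2 fell and none rose by edgeR, where 1.9% and 1.72% of all tested genes did. By DESeq2, 1 rose and 2 fell, where 6.41% and 6.56% of all tested genes did. The median log2 fold change was -0.255, and 3 of the 13 values were positive, where 49% of those of all tested genes were. Fbxo31, an F-box protein reported to target cyclin D1 for degradation, fell from 18.6 ± 0.35 to 6.78 ± 0.442 CPM (log2 fold change -1.46, edgeR adjusted p = 0.0434). Its libraries stood at 18.9 and 18.4 CPM in WT and at 7.09 and 6.47 CPM in KO. Skp1a, the adaptor that all SCF ubiquitin ligases share, fell from 164.8 ± 3.93 to 99.9 ± 4.97 CPM (-0.72, edgeR adjusted p = 0.048). Fbxo4, another F-box protein of cyclin D1, was at 18.2 and 18.2 CPM in WT and at 10.95 and 12.3 CPM in KO (-0.64 on the log2 scale, edgeR adjusted p = 0.0624). Ambra1, a receptor for the degradation of all 3 D-type cyclins, was at 41.0 and 42.3 CPM in WT and at 44.8 and 43.2 CPM in KO (0.08). Dtl, of the same list, stood higher in both KO libraries, at 5.155 and 4.335 CPM in WT and at 9.13 and 9.94 CPM in KO. Its log2 fold change was 1.01 (edgeR adjusted p = 0.0566).

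None of the 4 tested genes among the other CDK inhibitors was called by edgeR, with 1 lower and 0 higher at an unadjusted p under 0.05 and 1 lower by DESeq2. Cdkn1a (p21), the inhibitor induced by p53, was the most abundant of them by CPM, at 287 and 399 CPM in WT and at 175 and 187 CPM in KO (a log2 value of -0.92, with an edgeR adjusted p of 0.0668). Cdkn2b (p15), an inhibitor of Cdk4 and Cdk6, was at 59.7 and 49.8 CPM in WT and at 46.5 and 64.6 CPM in KO, overlapping. Cdkn2a was too low to be tested. No gene of the 7 for Cdk2 and its activation was called by edgeR or by DESeq2, with 2 higher and 1 lower at an unadjusted edgeR p under 0.05. Of all tested genes, 14.8% were higher and 15.7% lower at that unadjusted p. EdgeR called 1.72% of them higher and 1.9% lower, and DESeq2 6.41% and 6.56%. Cdc25a, the phosphatase that activates Cdk2, was at 35.8 and 31.3 CPM in WT and at 29.3 and 24.5 CPM in KO, and Cdk7, the CDK-activating kinase, at 13.8 and 12.7 against 14.7 and 14.3 CPM.

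Around Myc, 1 of 12 partners and antagonists rose and 1 fell by edgeR, where 1.72% and 1.9% of all tested genes did. DESeq2 called 1 higher and 2 lower, where it called 6.41% and 6.56% of all tested genes. The family member Mycl rose from 10.6 ± 1.59 to 28.2 ± 3.74 CPM (log2 fold change 1.41, edgeR adjusted p = 0.0434), with 9.49 and 11.7 CPM in WT and 25.5 and 30.8 CPM in KO. Mxi1, which competes with Myc for its partner Max, fell from 55.6 ± 2.38 to 32.7 ± 0.0672 CPM (-0.76, edgeR adjusted p = 0.0434). Of 16 Myc targets, DESeq2 called 4 higher and 1 lower, where 6.41% and 6.56% of all tested genes were. An unadjusted edgeR p under 0.05 was reached by 7 higher and 1 lower, where 14.8% and 15.7% did so. At the adjusted threshold edgeR called 3 higher and none lower, where 1.72% and 1.9% were. These were Ncl, which encodes nucleolin (169.7 ± 5.59 to 308 ± 9.54 CPM, 0.86), the ornithine decarboxylase gene Odc1 (62.3 ± 5.16 to 106 ± 0.384 CPM, 0.77) and the RNA polymerase I subunit gene Polr1b (10.7 and 9.26 to 18.3 and 18.7 CPM, 0.89). Their edgeR adjusted p were 0.0461, 0.0465 and 0.0495. In all, 15 of the 16 targets had a positive log2 fold change, where 49% of all tested genes did. Their median was 0.299 against -0.013 for all genes. The exception was Ldha, which encodes a lactate dehydrogenase subunit (-0.63, edgeR adjusted p = 0.0824).

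Downstream of the G1 kinases, 1 of 18 E2F targets of S phase entry rose and none fell by edgeR. Of all tested genes, 1.72% rose and 1.9% fell. An unadjusted edgeR p under 0.05 was reached by 9 higher and 1 lower, where 14.8% and 15.7% of all tested genes did so. DESeq2 called 2 higher and 1 lower, where it called 6.41% and 6.56% of all tested genes. The edgeR call was Tk1, which encodes thymidine kinase, from 8.85 ± 0.0192 to 24.3 ± 1.19 CPM (log2 fold change 1.45, edgeR adjusted p = 0.0434). Of the 18, 15 had a positive log2 fold change, where 49% of all tested genes did, and the median was 0.467. The other 3 were Pcna, Gins2 and Slbp. Pcna, which encodes the DNA polymerase clamp and was the most abundant of the 18 by CPM, stood lower in both KO libraries, at 129.7 and 93.3 CPM for WT and 64.5 and 70.9 CPM for KO (-0.72 on the log2 scale, edgeR adjusted p = 0.0886). Of 10 S and M phase cyclins and kinases, 2 rose, Ccna2 from 10.9 ± 0.799 to 21.5 ± 0.754 CPM (0.97, edgeR adjusted p = 0.0443) and Ccnb1 from 6.04 ± 0.916 to 14.5 ± 0.292 CPM (1.26, edgeR adjusted p = 0.0444). For all 10 the lower KO library lay above the higher WT library, and all 10 had an unadjusted edgeR p under 0.05 (DESeq2 called 8), with a median of 0.971. Of all tested genes, 31.1% were higher without overlap, 14.8% were higher at that unadjusted p and 6.41% were called higher by DESeq2. Mki67, which marks cycling cells, was at 48.5 and 66.0 CPM in WT and 158 and 151 CPM in KO (a log2 value of 1.43, with an edgeR adjusted p of 0.0434). Crypt base and progenitor markers summed to 89.6 and 84.6 CPM in WT and 144 and 148 CPM in KO. Of 7 tested, 2 were called higher by edgeR (Ephb2 and Cd44, where 1.72% of all tested genes were). In CPM, both KO libraries were above both WT libraries for 5 of the 7 and below them for 2, Lgr5 and Smoc2. Lgr5 had 230 and 145 counts in WT and 41 and 49 in KO. Smoc2 was at 6.07 and 7.62 CPM in WT and at 3.325 and 4.91 CPM in KO. Absorptive colonocyte markers summed to 2867 and 2491 CPM in WT and 1285 and 1460 CPM in KO. By edgeR, 1 of 7 was called lower, where 1.9% of all tested genes were. This was Aqp8, at 1113 and 981 CPM in WT and at 345 and 316 CPM in KO. In CPM, both KO libraries were below both WT libraries for 3 of the 7 and above them for 1, Slc26a3. Of all tested genes, 32.2% and 31.1% did so. Slc26a3 was at 21.7 and 21.4 CPM in WT and at 30.8 and 31.96 CPM in KO. The part of these cell types in the pathway values was not tested. Among 8 DREAM and MuvB genes, which repress or activate cell cycle promoters, none was called by edgeR. At an unadjusted edgeR p under 0.05, 2 were higher and 1 lower, where 14.8% and 15.7% of all tested genes were. DESeq2 called 1 higher, where it called 6.41% of all tested genes. The most abundant members of this list by CPM, Rbbp4 and Lin54, were at log2 fold changes of 0.06 and -0.56. Its largest log2 fold change was that of Foxm1, at 1.5 (edgeR adjusted p = 0.0506). Foxm1 was at 4.095 and 6.02 CPM in WT and at 12.99 and 15.7 CPM in KO. The list's median log2 fold change was 0.144. Among 16 atypical and other cyclins and CDKs, none was called by edgeR, and DESeq2 called 1 lower, where it called 6.56% of all tested genes. At an unadjusted edgeR p under 0.05, 3 were higher and 4 lower, where 14.8% and 15.7% of all tested genes were. The median of that list was -0.253, and its most abundant members, Ccni and Ccnl2, were at -0.40 and -0.23.

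**Figure D4:**
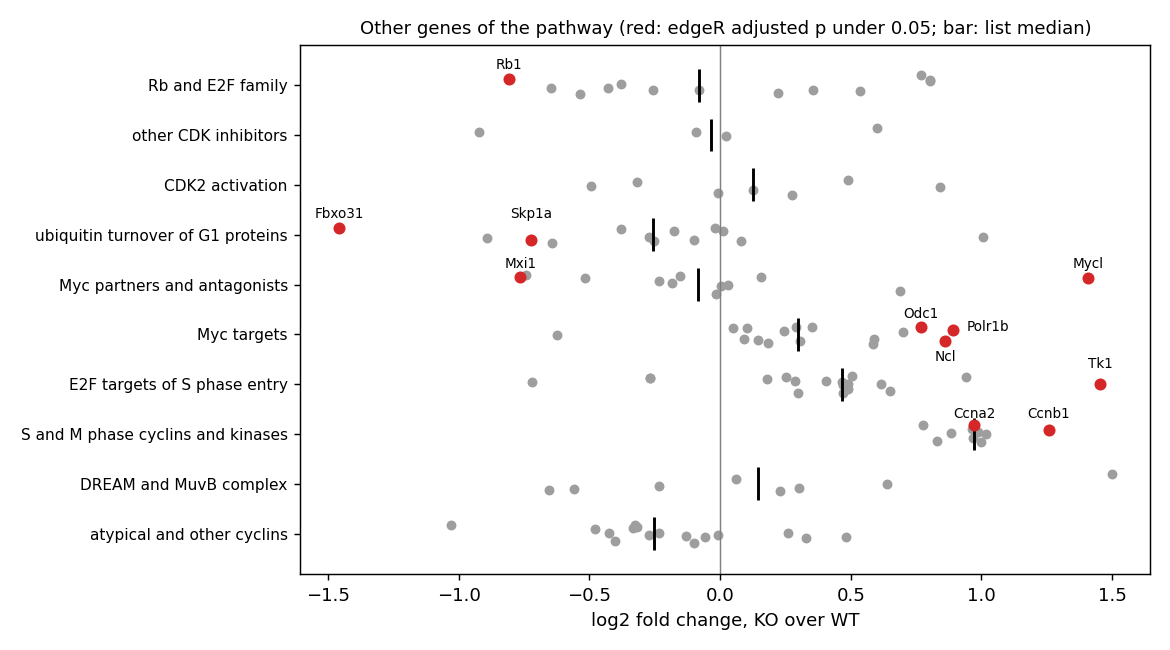
Log2 fold change of each tested gene in the 10 pathway lists (horizontal axis, points spread vertically for legibility), with list medians as bars and the 11 genes called by edgeR named in red. All 10 S and M phase genes lie to the right of 0 with a median of 0.971, and the turnover list has a median of -0.255.

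The genes closest to Ccnd1 in their profile were found by the Euclidean distance of log2 CPM, centred on the mean of the 4 libraries, among 9706 named, not merely predicted, genes whose mean was 5 CPM or more. They were Cdca3, a mitotic entry gene (distance 0.0449), Ccna2 (0.0611), Mcc (0.065), Birc5, a gene of the chromosomal passenger complex (0.0729), and the translation initiation factor gene Eif1a (0.0812). Cdca3, for example, was at 6.79 and 7.49 CPM in WT and at 15.6 and 14.3 CPM in KO. Closest to Myc were Bcat2, a branched-chain aminotransferase gene (0.023), Zadh2 (0.0394) and Zfp362 (0.0428). Over 4 libraries many genes can follow 1 profile, so these distances are a description only.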

How the data were processed

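The deposited values are whole-number counts, not normalised by the authors as far as the values show, since the library totals differ. Software and build are known from the submitters' processing notes, which list FastQC (0.11.2), STAR (2.4.2a), RSEM (1.2.29) and mm10, with no role for any. No source used here gives the annotation, the strandedness or whether the counts are rounded estimates. Columns left without a sample numbered 0. Gene IDs were matched to GENCODE M21 (GRCm38), which held 99.56% of them, and coordinates are 1-based.

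Genes were kept with filterByExpr, scaled by TMM and tested, KO against WT, two-sided, with edgeR's quasi-likelihood test (edgeR 4.0.16, R 4.3.3, legacy and robust options on) and Benjamini-Hochberg adjustment over all 14861 genes at a threshold of 0.05. SE are the log2 fold change divided by the root of F, and the fit leaves 2 residual degrees of freedom. Log2 CPM used an offset of 0.5. A count of 0 would allow up to 3 counts, 0.12 to 0.136 CPM, for counting error only. The test was checked on simulated counts. Alternatives used DESeq2 1.42.0, limma 3.58.1 (voom), other scalings, options and filters, each library left out and sex as a covariate. The length of the longest coding transcript was added after seeing the data.

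Members and lists were chosen with earlier results of these data known. The named genes are the members, up to 3 called genes with the largest change per pathway list (mean CPM at least 1) or else its 2 most abundant, the nearest profiles, Mettl14 and Mki67. Rbl1, Rbl2, E2f1, Fbxo4, Dtl, Ambra1, Ldha, Pcna, Gins2, Slbp, Foxm1, Lgr5, Smoc2, Ephb2, Cd44, Aqp8, Slc26a3, Ly6g and the overlapping neighbours were named after their values were seen.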

Additional observations from a re-analysis of the deposited data

Results flagged for a closer look

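For 2 of the 10 genes the male libraries and the female libraries differed in opposite directions, with 1 library of each genotype per sex, and the difference between the sexes was not tested. Cdk4 had a log2 difference, KO minus WT, of -0.04 between the male libraries and 0.16 between the female ones. Cdkn1c had 0.07 between the male libraries and -0.29 between the female ones.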

How the results depend on the processing

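Of the 10 genes, 8 kept their direction in all 15 alternatives. The exceptions were Cdk4, between -0.079 (without WT replicate 2) and 0.23 (without WT replicate 1), and Cdkn1c, between 0.12 and -0.32 on leaving out the same libraries and at 0.039 with library size scaling, and the cause was not tested. With RLE factors or with the robust option off, 1 of the 10 was called higher, and 0 to 2 were called higher when 1 library was left out. Leaving out 1 library gave 0 to 1271 genes called higher and 0 to 1019 called lower over the whole table, and 0 to 20 and 0 to 9 in the pathway lists. These were 0 without either KO library, 529 higher and 719 lower on dropping WT replicate 1, and 1271 and 1019 on dropping WT replicate 2. Against 255 higher and 282 lower (47.5% higher), library size scaling called 604 and 186 (76.5% higher), DESeq2 952 and 975, no filter 862 and 770, sex as a covariate 696 and 713, and upper quartile scaling 416 and 265 (61.1% higher). In the pathway lists, against 7 and 4, the same alternatives called 14 and 1, 17 and 9, 18 and 9, 14 and 7, and 10 and 4. The labels give no replicate numbers that pair the genotypes, and the fit with sex as a covariate blocked the male and the female pair.

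The D-type cyclin shares in WT and KO depended on the length used. With exon lengths they averaged 37.1% and 44.4% for Ccnd1, 41.7% and 44.8% for Ccnd2 and 21.2% and 10.7% for Ccnd3. With the longest transcript they were 29.8% and 38.1%, 39.5% and 45.3%, and 30.7% and 16.6%. With the longest coding transcript they were 23.7% and 33.5%, 31.5% and 39.8%, and 44.7% and 26.7%. With plain counts they were 23.2% and 28.9%, 52.1% and 58.1%, and 24.7% and 13.0%. The share of Ccnd3 is lower in KO with any fixed lengths, since Ccnd3 was lower in KO and Ccnd1 and Ccnd2 were higher. Its direction over these lengths is therefore not a separate check. The depth limits Ccne1 and Ccne2 most, since no library held over 137 counts of either.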

Other observations

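The letters GGACT, the core in which the Mettl3 and Mettl14 complex most often methylates adenosine, were counted in the longest coding transcript of each gene as a description of sequence only, since m6A was not measured in these libraries. Over 13532 tested genes the median was 1.05 per kb, with quartiles of 0.649 and 1.53. Myc had 6 in 2338 bases (2.57 per kb), above 95.5% of tested genes or level with them. Ccne1 had 1.5 and Ccne2 0.665 per kb, Ccnd3 1.42, Ccnd2 0.948 and Ccnd1 0.802 per kb. Cdk4 had 0 in 2053 bases. Cdkn1c had 1.05, Cdk6 0.781 and Cdkn1b 0.659 per kb.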
